A study of Macaca mulatta with 2 samples.

Results

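The cells described here were found in the trabecular meshwork of rhesus macaques by their transcripts of BMP3, MGARP, WIF1 and SLC4A10. A member was a barcode that passed the filters (500 genes or more, and less than 20% of UMIs from mitochondrial genes) and held a UMI of at least 2 of these 4 genes. UMIs, unique molecular identifiers, each stand for 1 captured transcript. It also had fewer than 2 UMIs of the smooth muscle gene MYH11 and 0 UMIs of the endothelial gene PECAM1, the Schwann cell gene CDH19 and the macrophage gene CD14. By this rule 1842 of 14063 kept barcodes were members, with 1461 in the library labelled glaucoma and 381 in that labelled normal. Because members were chosen by their measured UMIs of these genes, the levels of the 4 marker genes and every difference between members and other cells are descriptions without a test.

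The study profiled single cells of trabecular meshwork from macaques with spontaneous primary open-angle glaucoma and from healthy controls, and asked which cells and genes bear on relaxation and contraction of the tissue. There was 1 library per group, labelled glaucoma and normal, both from Macaca mulatta, with no treatment or transgene given. The number of animals and eyes behind a library is not stated in the labels, and neither are age, sex or intraocular pressure. Both tissues were digested with collagenase and captured with the same droplet kit per the labels. With 1 library per group, glaucoma cannot be told apart from differences between animals, dissections or capture runs, and no p-value is given.

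The trabecular meshwork is the porous tissue through which aqueous humour leaves the front of the eye, and resistance to that flow sets the eye pressure. Its cells line the beams of the meshwork or lie in the juxtacanalicular layer beside Schlemm's canal, and they contract, take up debris and turn over matrix. BMP3 encodes a bone morphogenetic protein family member known to oppose BMP signalling, WIF1 a secreted inhibitor of Wnt ligands, MGARP a mitochondrial protein and SLC4A10 a sodium-coupled bicarbonate transporter.

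The libraries held 10624 and 7028 barcodes, of which 8633 and 5430 were kept, at median depths of 2822 and 2716.5 UMIs in glaucoma and normal. The members were deeper than the kept barcodes as a whole, with medians of 5281 UMIs and 1861 genes in glaucoma and 7752 UMIs and 2376 genes in normal. Together they held 8438942 and 3085304 UMIs. Their median mitochondrial share was 3.88% in glaucoma and 1.56% in normal. Levels below are CPM, the UMIs of a gene summed over a group of cells per 1000000 UMIs of those cells, and log2 ratios are of such sums. Intervals in brackets are exact 95% intervals that cover counting error only, and a gene was counted as higher or lower at a difference of at least 2-fold. Scrublet, a doublet caller, marked 36 members (2.46%) in glaucoma and 1 (0.262%) in normal, and these were kept. The libraries shared 17 kept barcodes, none of which was a member in both.

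Members made up a larger share of the glaucoma library than of the normal library. They were 16.9% of kept barcodes [16.1, 17.7] in glaucoma and 7.02% [6.35, 7.73] in normal, a log2 ratio of 1.27 [1.11, 1.44]. Among kept barcodes that carried none of the excluded markers above their limits, the shares were 32.9% and 13.5%. The difference grew with the number of the 4 marker genes a cell held. Cells with exactly 2 of them were 5.76% and 4.60% of kept barcodes, cells with 3 were 6.89% and 1.86%, and cells with all 4 were 4.27% and 0.552%. The log2 ratios of these shares were 0.32 [0.10, 0.55], 1.89 [1.58, 2.21] and 2.95 [2.41, 3.54]. When each barcode was thinned to 1000 UMIs before the rule was applied, 9.94% of 7764 barcodes in glaucoma and 1.74% of 4882 in normal were members. Just outside the rule, 704 and 578 barcodes held exactly 1 marker gene, against 497 and 250 just inside it with exactly 2. Of kept barcodes within the exclusion limits, those with exactly 1 were 15.9% in glaucoma and 20.6% in normal. Those with exactly 2 were 11.2% and 8.89%. The share with exactly 1 marker gene was thus smaller in glaucoma, unlike the shares inside the rule. The exclusion genes removed 465 of 1926 barcodes with at least 2 markers in glaucoma and 121 of 502 in normal, most often through MYH11.

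**Figure D1:**
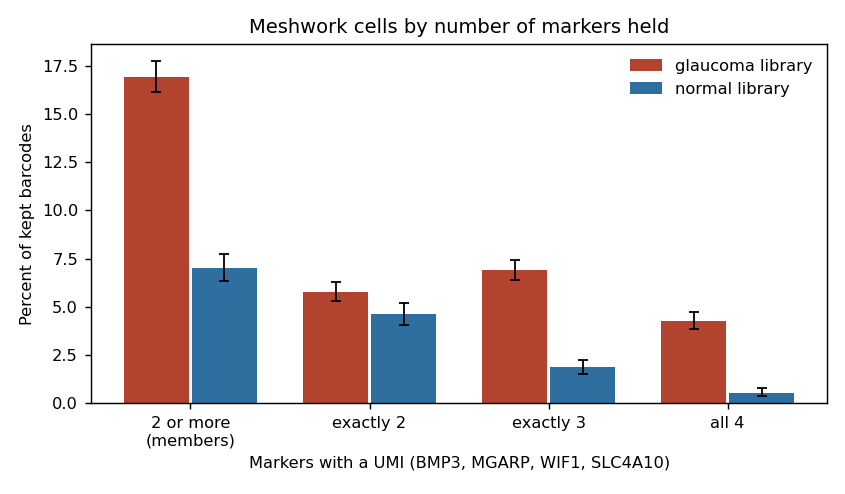
Bars give the percent of kept barcodes in the glaucoma and normal libraries that met the rule with at least 2, exactly 2, 3 or 4 marker genes, with exact 95% intervals for counting error. The bars lie close for exactly 2 markers (5.76% and 4.60%) and far apart for all 4 (4.27% and 0.552%).

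The 4 marker genes were combined differently in the 2 libraries. In glaucoma the most frequent combinations were all 4 genes, in 25.3% of members, and BMP3 with MGARP and SLC4A10, in 24.0%. In normal these made up 7.87% and 11.3%, and BMP3 with WIF1 was the most frequent combination, in 25.7% of members against 6.43% in glaucoma. MGARP was seen in 83.0% of glaucoma members and 59.3% of normal members, at 884 and 221 CPM. BMP3 was seen in 90.2% and 82.9%, at 553 and 275 CPM. SLC4A10 was seen in 66.1% and 37.5%, at 232 and 116 CPM. WIF1 stood apart from the other 3 genes, with 52.0% in glaucoma and 62.5% in normal at 487 and 433 CPM. Members had to hold at least 2 of these 4 genes, so the share of each depends on the levels of the others. The rule itself thus bears on these shares and combinations. Cell by cell, BMP3 ranged from 0 to 46.8 per 10000 UMIs in glaucoma with a median of 4.67, and from 0 to 25.8 in normal with a median of 2.09. The median of MGARP was 6.10 in glaucoma and 1.07 in normal, with overlapping ranges. As a gauge of free RNA, lymphocyte-type cells (median depths of 1403 and 1804.5 UMIs) held BMP3 in 3.03% and 0% and MGARP in 4.85% and 1.52% of cells. The 0 among 66 normal lymphocyte-type cells allows a share of up to 4.55%.

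A pair of markers listed for these cells, RSPO3 and SMPX, was not used by the rule. The pair was listed with earlier results of these data known, so its presence in members is no independent support. RSPO3 encodes a secreted protein that raises the response of cells to Wnt ligands. It was detected in 731 of 1461 members in glaucoma and in 28.3% of members in normal, and at a common depth of 1000 UMIs in 17.3% and 4.79%. It was also seen in 35.4% and 23.1% of juxtacanalicular-type cells, but in 1.87% and 0.938% of stromal fibroblast-type cells and 1.21% and 0% of lymphocyte-type cells. The comparator cells were kept barcodes outside the members that met the same exclusions. Juxtacanalicular-type cells (243 and 242, median depths of 5679 and 7079 UMIs) held at least 2 UMIs of CHI3L1 and 1 of ANGPTL7. Stromal fibroblast-type cells (268 and 533, medians of 2152 and 2571 UMIs) had fewer than 2 UMIs of CHI3L1 and held at least 2 of PDGFRA, LUM and C7.

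SMPX, a small protein best known from striated muscle, was detected in 27.4% of glaucoma members and 2.62% of normal members, at 130 and 4.21 CPM. At 1000 UMIs per cell the shares were 9.64% and 0.266%. Its share was 4.12% and 0.413% in juxtacanalicular-type cells and 2.32% and 1.57% in endothelial-type cells (median depths of 3110.5 and 2205 UMIs). The normal members' share of SMPX was therefore near that of endothelial-type cells, which should lack the gene. In glaucoma both markers had larger shares in members than in each comparator, although for RSPO3 the shares at 1000 UMIs were 17.3% in members and 14.2% in juxtacanalicular-type cells. In normal members RSPO3 (28.3%) was close to its share in juxtacanalicular-type cells (23.1%) and SMPX was rare, so these markers set the normal members little apart from juxtacanalicular-type cells.

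**Figure D2:**
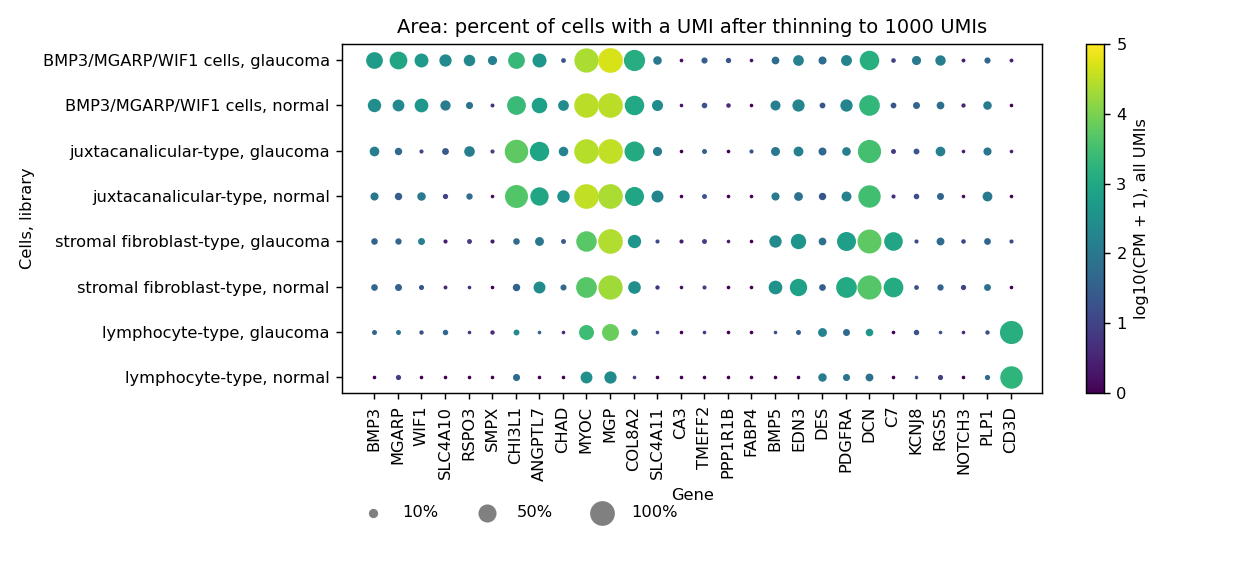
Each dot is a marker gene (columns) in members, juxtacanalicular-type, stromal fibroblast-type or lymphocyte-type cells of the 2 libraries (rows); its area is the percent of cells with a UMI after thinning to 1000 UMIs and its colour is log10 of CPM plus 1. RSPO3 and SMPX, which the rule did not use, have their largest dots in glaucoma members (17.3% and 9.64%).

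General meshwork genes were abundant in members. MYOC, the gene of myocilin, in which variants cause inherited glaucoma, was detected in 97.7% of glaucoma members and 98.2% of normal members at 22869 and 29766 CPM. Its transcripts were also in 45.5% and 28.8% of lymphocyte-type cells, so presence of a MYOC UMI alone did not mark a cell. MGP, an inhibitor of calcification, reached 48733 and 30486 CPM. COL8A2, a short-chain collagen listed here as a marker of corneal endothelium, was seen in 97.7% and 95.0% of members. The juxtacanalicular genes CHI3L1 and ANGPTL7 were seen in 65.6% and 76.4% and in 62.5% and 62.7% of members. The 6 juxtacanalicular markers summed to 2668 and 3499 CPM in members against 6819 and 5641 in juxtacanalicular-type cells. CHAD, a leucine-rich matrix protein among these markers, was in 3.70% of glaucoma members and 30.7% of normal members. Beam markers were mixed: PPP1R1B was in 6.71% and 1.84% of members, FABP4 in 0.274% and 0%, and BMP5 in 19.3% and 45.7%. Of the 6 beam markers, 4 were in at least 10% of members in each library. The 6 summed to 444 and 611 CPM in members and to 511 and 469 in juxtacanalicular-type cells. In stromal fibroblast-type cells they summed to 1280 and 1423 CPM.

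Members also carried transcripts that mark other cell types, at levels that differed between libraries. SLC4A11, a transporter of the corneal endothelium, was in 29.9% of glaucoma members and 49.3% of normal members. The 6 corneal endothelium markers, which include SLC4A11 and COL8A2, summed to 2155 and 2395 CPM in members. They summed to 2296 and 2118 CPM in juxtacanalicular-type cells and to 626 and 552 in stromal fibroblast-type cells. Among pericyte markers, KCNJ8, a potassium channel subunit, was in 35.3% and 20.5% and RGS5 in 46.7% and 32.3%, and the pericyte list summed to 402 and 285 CPM. The 4 smooth muscle markers other than MYH11 summed to 605 and 197 CPM in members, to 343 and 166 in juxtacanalicular-type cells and to 632 and 531 in lymphocyte-type cells. Fibroblast markers summed to 11471 and 18204 CPM, below 52185 and 51286 CPM in stromal fibroblast-type cells. Macrophage markers other than CD14 summed to 0.237 and 0.324 CPM and lymphocyte markers to 2.96 and 0. The haemoglobin gene HBB, a sign of blood, stood at 477 CPM in glaucoma and 15.2 CPM in normal members. The erythroid list of 3 genes, HBB included, summed to 857 and 211 CPM. The part of these signals in the differences below was not tested.

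Before thinning, SMPX in glaucoma and PCSK1N in both libraries were more frequent in cells with more of the rule genes. SMPX in glaucoma was seen in 0.352% of cells with none of the 4 genes, 3.27% with 1, 15.5% with 2, 29.9% with 3 and 39.3% with 4. After thinning these shares were 0.152%, 1.35%, 4.09%, 11.4% and 14.1%. SMPX in normal, after thinning, was in 0.0622%, 0.364%, 0%, 0.99% and 0% of the same series, with no clear order. RSPO3 in glaucoma was seen in 57.5% of cells with 3 genes and 54.2% with 4, and after thinning in 129 of 594 and 48 of 369 cells, so its share was highest with 3. In normal it went from 3.24% with none to 35.6% with 3, and only 30 normal cells held all 4. PCSK1N, an inhibitor of prohormone convertase, was more frequent with more rule genes in both libraries, from 9.24% to 78.6% in glaucoma and from 6.26% to 43.3% in normal. CHAD in glaucoma was in 6.25% of cells with none, peaked at 12.2% with 1 gene and was at 2.17% with 4. In normal it peaked at 37.2% with exactly 2. Median depth was also greater with more rule genes, from 1663 to 5772 UMIs in glaucoma and from 2096 to 8266.5 in normal, and its part in these shares beyond the thinned values was not tested.

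**Figure D3:**
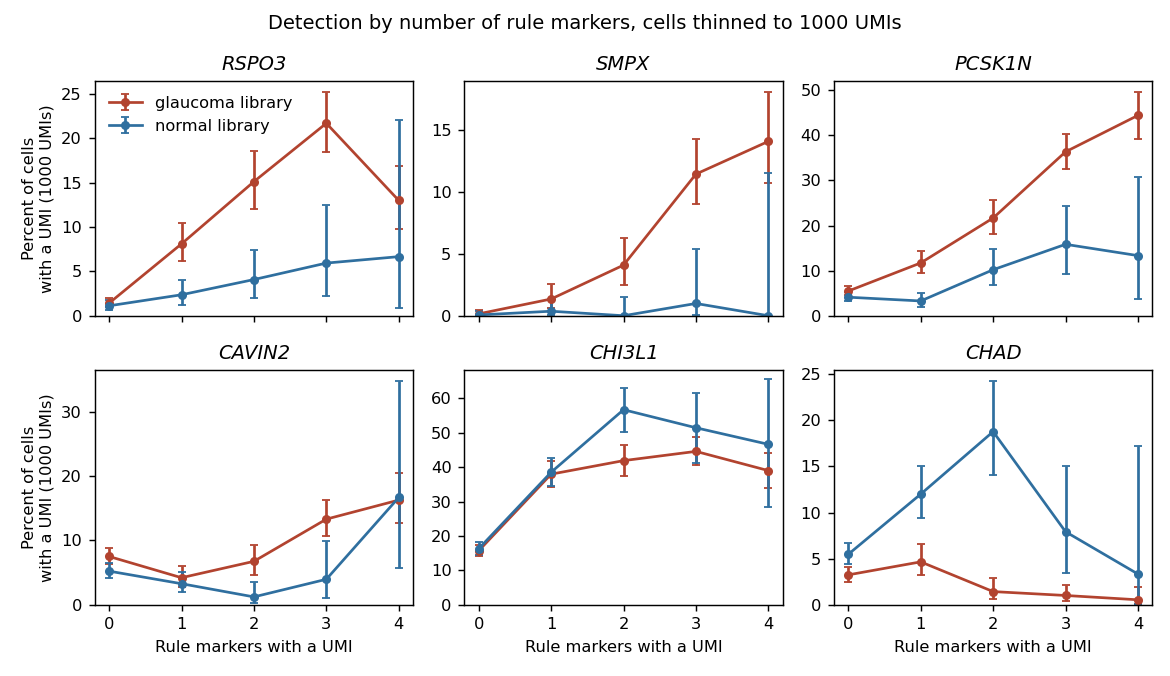
The percent of cells with a UMI of RSPO3, SMPX, PCSK1N, CAVIN2, CHI3L1 and CHAD, after thinning to 1000 UMIs, is plotted against the number of rule genes held (0 to 4) for both libraries, with exact 95% intervals. SMPX reaches 14.1% in glaucoma and is at 0% in normal cells with all 4 genes.

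Members with 3 or 4 rule genes differed little from those with exactly 2 at the 2-fold level. Of 3825 genes measured, 2 were higher in both libraries (0.0523%) and 8 were lower (0.209%), a comparison added after these values had been seen. PSAT1, an enzyme of serine synthesis, was among the higher genes, by log2 ratios of 1.51 in glaucoma and 2.58 in normal. CHAD (-2.09 and -1.64), THBS4 (-2.07 and -1.68) and PLA2G2A (-1.23 and -1.87) were among the lower genes. WIF1 also divided the members. In glaucoma BCHE, the gene of butyrylcholinesterase, was in 25.8% of members with a WIF1 UMI and 6.13% of those without, whereas in normal it was in 2.94% and 4.20%. TNNT1, a troponin of slow muscle, was in 24.0% of glaucoma members with WIF1 and 45.6% without. RSPO3 was in 41.8% of members with WIF1 and 59.0% without in glaucoma, and in 21.4% and 39.9% in normal. Members without WIF1 had to hold at least 2 of the other 3 rule genes and those with it at least 1, so the rule itself bears on this split.

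Set against juxtacanalicular-type cells, members differed by 2-fold in few genes. Of 4962 genes, 34 were at least 2-fold higher in members of both libraries (0.685%) and 8 were lower (0.161%), and the medians of all log2 ratios were 0.13 in glaucoma and 0.10 in normal. Centred on those medians, the counts were 26 and 12. At 1000 UMIs per barcode they were 0 and 12, and without members that held 2 or more UMIs of CHI3L1, 37 genes were lower. The rule used this contrast, and the cells were chosen so that they differ. NPY, a neuropeptide, was at 43.4 CPM in members and 4.14 in juxtacanalicular-type cells of the glaucoma library and at 73.9 and 8.25 CPM in the normal library. Its log2 ratios were 3.39 [2.25, 4.85] and 3.16 [2.41, 4.02], on 6 and 15 juxtacanalicular-type UMIs. PCSK1N was at 609 and 111 CPM in glaucoma and 158 and 25.3 in normal, log2 ratios of 2.46 and 2.64. Both secretory genes were thus higher in members whichever library was read.

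Metabolic, signalling and transport genes were also among the higher 34. PSAT1 stood higher by 3.70 and 2.38 on the log2 scale, and GRB14, an adaptor that inhibits the insulin receptor, by 2.77 and 2.18. ABCA8, a lipid transporter, differed by 2.07 and 2.02. KCNJ8 was at 109 and 19.3 CPM in glaucoma and 38.2 and 14.9 in normal (2.50 and 1.36), and CBLN4, a secreted synaptic organiser, at 2.51 and 1.97. Others named by rank were VMO1 (2.06 and 2.38), CHST1 (2.23 and 1.48), RBPMS (2.27 and 1.39), LURAP1L (1.71 and 1.81), DYNLT5 (1.76 and 1.64), CNN1 (1.54 and 1.66) and HTR2A, a serotonin receptor (1.32 and 1.44). Of the pathway lists, the glucose transporter SLC2A1 (1.54 and 1.04), the protease inhibitor SERPINE2 (1.83 and 1.20), the collagen COL3A1 (1.33 and 1.17) and APOE (2.60 and 1.02) were higher in both libraries, and no list gene was lower in both.

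The 8 genes lower in members included PLA2G2A, a secreted phospholipase, at 456 CPM against 3213 in glaucoma and 410 against 1221 in normal (-2.82 and -1.58). TNMD, a transmembrane protein of tendon, differed by -3.98 and -1.56, and GPHA2, a glycoprotein hormone subunit, by -2.54 and -1.54. PROK2, PTGR1, TAC3, ALDH3A1 and RFLNA ranged from -2.62 to -1.85 in glaucoma and from -1.33 to -1.08 in normal. All 8 had larger differences in glaucoma than in normal, which was not tested.

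**Figure D4:**
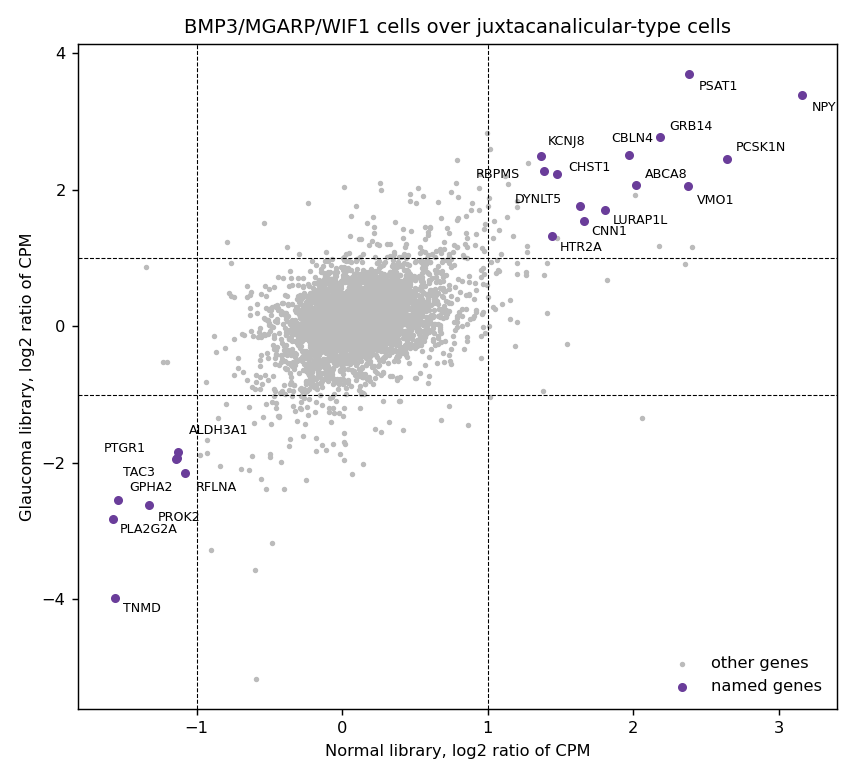
Each point is a gene, with its log2 ratio of CPM in members over juxtacanalicular-type cells in the normal library on the x axis and in the glaucoma library on the y axis; labelled points are genes named by rank. NPY and PCSK1N lie high on both axes, and TNMD and PLA2G2A lie low on both.

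Members differed from stromal fibroblast-type cells in more genes. Of 5257 genes, 175 were higher in members of both libraries (3.33%) and 315 lower (5.99%), and these counts became 227 and 191 when centred on the medians of -0.17 and -0.27. The higher genes named by rank included several that encode secreted proteins. CCK, cholecystokinin, was at 1009 CPM in members and 24.3 in fibroblast-type cells of the glaucoma library and at 877 and 2.48 CPM in the normal library. Its log2 ratios were 5.37 [4.69, 6.15] and 8.46 [7.11, 10.34], on 17 and 4 fibroblast-type UMIs. CYTL1, a secreted cytokine-like protein, was at 6308 and 382 CPM and at 6215 and 106 CPM (4.04 and 5.87). CXCL14, a chemokine, stood at 3182 and 231 and at 2678 and 147 CPM (3.79 and 4.19), and IGFBP2, a binder of insulin-like growth factors, at 6378 and 508 and at 3549 and 147 CPM (3.65 and 4.60). All 4 genes were higher in members whichever library was read.

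The water channel AQP1 was at 115 and 8.59 CPM in glaucoma and 104 and 3.73 in normal. Its log2 ratios were 3.74 [2.61, 5.19] and 4.80 [3.66, 6.26], on 6 fibroblast-type UMIs in each library. RSPO3 (4.92 and 4.44), TSPAN13 (5.12 and 4.96) and GRB14 (4.25 and 3.77) were higher on 4 to 7 fibroblast-type UMIs per library. Others rested on 3 or fewer fibroblast-type UMIs in at least 1 library and carry wide intervals: the neural cadherin CDH2 (4.48 [2.62, 7.53] and 4.69 [2.80, 7.76]), GPR83 (5.30 [3.44, 8.35] and 5.63 [4.06, 7.91]), PSTPIP1 (4.07 [2.21, 7.12] and 5.50 [3.63, 8.56]), RGS4 (4.21 [1.72, 9.52] and 3.93) and TRH, thyrotropin-releasing hormone (4.94 [2.45, 10.24] and 5.85 [4.29, 8.13]). SCG2, a granin of secretory vesicles, differed by 4.26 [2.40, 7.31] in glaucoma and by at least 4.42 in normal, where no UMI was seen in fibroblast-type cells and the floor was 3 counts per library. CBLN4 had no UMI in fibroblast-type cells of either library, against 51.1 and 32.4 CPM in members, log2 ratios of at least 3.57 and 4.12 against the same floor. Among genes of contraction, LMOD1 (2.86 and 3.26), CNN1 (2.54 and 1.77), ACTA2 (1.71 and 1.12) and TAGLN (1.64 and 1.78) were higher in members, 4 of 25 measured, and none was lower. Of 20 Wnt genes 5 were higher, with RSPO2 at 3.13 and 3.45 and SFRP1 at 2.44 and 4.53, and 3 were lower, with SFRP4 at -3.23 and -2.47. Of 18 inherited glaucoma and outflow genes 5 were higher, among them MYOC (2.19 and 2.64), ANGPTL7 (2.12 and 1.48) and CAV1 (1.30 and 2.34), and 1 was lower. Among the lower genes named by rank, CFD, complement factor D, was at 7.35 and 586 CPM in glaucoma and 2.27 and 288 in normal (-6.32 and -6.99), and C3 differed by -5.52 and -4.93. SCN9A, CITED1, ITIH2, ATP13A5, TNFSF10, LRRC24 and VLDLR lay between -5.54 and -3.94 in glaucoma and between -5.74 and -4.40 in normal.

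The glaucoma members were then set against the normal members. Of 7416 genes with at least 100 UMIs over both libraries, leaving out the genes of the rule, 355 were at least 2-fold higher in glaucoma (4.79%) and 428 were lower (5.77%), with a median log2 ratio of -0.03. Counts for gene lists below are over the members of a list that reached this minimum, which a gene can reach through 1 library alone. Each such count is to be read against the shares over all genes, 4.79% higher and 5.77% lower. Cells with exactly 2 rule genes were 34.0% of glaucoma members and 65.6% of normal members, so the mix of cells differed between the libraries. With the same weights for cells of 2, 3 and 4 rule genes in both libraries, an alternative added after seeing the data, 302 genes were higher (275 of them in common) and 440 lower (383 in common).

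Some of the genes highest in glaucoma over normal members encode muscle proteins. TNNT1 was at 173 CPM in glaucoma, with 1459 UMIs in 34.4% of members, and at 0.648 CPM in normal, with 2 UMIs in 0.525% of members, a log2 ratio of 8.06 [6.20, 11.11]. TNNT1 was likewise at 130 and 0.550 CPM in juxtacanalicular-type cells, at 54.4 and 4.35 in fibroblast-type cells and at 33.1 and 0 in lymphocyte-type cells, so the difference between libraries was not confined to members. SMPX differed by 4.95 [4.17, 5.87], and MYH1, a fast muscle myosin, by 3.46 [2.39, 4.79] at 24.9 and 2.27 CPM. TNNI1, the inhibitory troponin of slow muscle, was at 22.8 and 9.08 CPM (1.33), whereas MYL2, a cardiac and slow muscle myosin light chain, was lower at 12.0 and 52.8 CPM (-2.14). These were chosen by rank or by the list of 26 striated and small muscle genes, of which 4 (TNNT1, SMPX, TNNI1 and MYL2) reached 100 UMIs. TNNT1, SMPX and TNNI1 reached it through the glaucoma library alone, so no direction is read from that list.

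Receptor, enzyme and secreted proteins made up the other higher genes named by rank. IL13RA2, a decoy receptor for interleukin-13, was at 27.0 and 0.648 CPM (5.38 [3.51, 8.44]) on 228 and 2 UMIs. BCHE was at 54.6 and 5.51 CPM (3.31 [2.61, 4.10]), in 16.4% and 3.41% of members, and at 2.76 and 2.75 CPM in juxtacanalicular-type cells. SOSTDC1, a secreted antagonist of BMP and Wnt signals, was at 54.0 and 6.16 CPM (3.13 [2.47, 3.88]) in members and at 6.89 and 9.90 in juxtacanalicular-type cells. Thus BCHE and SOSTDC1 differed between libraries in members. In juxtacanalicular-type cells their levels rest on few UMIs, so neither a difference nor its absence is read there. The difference of these differences was not tested. TAC1, which encodes neuropeptides of the tachykinin family (5.10 [3.22, 8.15]), and CRHBP, which encodes a binding protein of corticotropin-releasing hormone (4.61 [2.73, 7.67]), had 2 UMIs each in normal members and were in 1.85% and 2.33% of glaucoma members. In fibroblast-type cells TAC1 was at 188 and 0 CPM and CRHBP at 162 and 49.7 CPM, and 1 barcode held 24.6% of the CRHBP UMIs of glaucoma members. BHMT (3.59 [2.0, 5.89], 3 normal UMIs), SLCO1B1 (3.36), ASTN1 (2.97), NPW (2.93), KRT7 (2.92) and SCG5 (2.83) were also among the 15, and SLCO1B1 was at 182 and 272 CPM in endothelial-type cells.

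The genes lowest in glaucoma over normal members, named by rank, included several that encode secreted or matrix proteins. CHAD was at 17.2 CPM in glaucoma and 248 in normal (-3.85 [-4.12, -3.59]), and at 156 and 346 CPM in juxtacanalicular-type cells (-1.15). CNMD, chondromodulin, was at 3.08 and 81.0 CPM (-4.72), HAPLN1, a link protein of hyaluronan, at 2.73 and 36.9 (-3.76), EDIL3, an integrin-binding matrix protein, at 3.79 and 49.3 (-3.70) and THBS4, a thrombospondin, at 13.5 and 165 (-3.61). In endothelial-type cells CNMD was at 3.32 and 58.9 CPM and THBS4 at 4.26 and 57.5, so their differences were not confined to members. HAPLN1 was at 1.89 and 6.84 CPM there and EDIL3 at 5.45 and 4.11. TGFBI, an adhesion protein of the cornea that TGF-beta induces, was at 55.5 and 469 CPM (-3.08 [-3.23, -2.93]), and at 247 and 448 in juxtacanalicular-type cells (-0.86). TGFBI was less frequent in glaucoma members at 16.1% against 57.5%. STC1, a secreted glycoprotein hormone, was at 1.66 and 46.7 CPM (-4.81 [-5.72, -4.02]) in members and at 59.3 and 70.4 CPM in juxtacanalicular-type cells, and 1 barcode held 57.1% of its glaucoma UMIs. Endothelial-type cells held STC1 at 90.9 and 242 CPM, above its level in members. CXCL2 (-3.27), IL6 (-3.11), NR4A3 (-3.38), GADD45G (-3.00) and BAG3 (-2.94), genes of inflammation and stress, were also among the 15, with PLA1A (-3.93), CCDC152 (-3.88) and LONRF3 (-2.77).

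Of 27 contractile genes measured, 4 were higher in glaucoma members and 0 lower, with a median log2 ratio of 0.29 against -0.03 for all genes. ACTA2, smooth muscle actin, was at 427 CPM in glaucoma and 139 in normal (1.62), detected in 52.1% and 32.5% of members. CNN1, calponin, was at 117 and 38.2 CPM (1.61), DES, desmin, at 57.6 and 18.8 (1.62) and TAGLN, transgelin, at 4108 and 1875 (1.13). These 4 were also higher in glaucoma in juxtacanalicular-type cells, by 0.93 for ACTA2, 1.72 for CNN1, 1.21 for DES and 1.26 for TAGLN. ACTA2 stood at 346 and 334 CPM and TAGLN at 731 and 159 CPM in lymphocyte-type cells. The smooth muscle myosin kinase MYLK (-0.42) and the tropomyosin TPM3 (-0.76) were not past 2-fold.

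Among genes that regulate contraction and relaxation, none of 12 calcium handling genes was past 2-fold, with a median of -0.27. Of 13 endothelin and contractile receptor genes, PLCB1, a phospholipase downstream of such receptors, was lower at 34.7 and 132 CPM (-1.93), and LPAR1, a lysophosphatidic acid receptor, at 6.52 and 21.1 (-1.69). The endothelin receptors EDNRA (0.69) and EDNRB (0.63), endothelin EDN3 (-0.20) and the kinases ROCK1 (-0.75) and ROCK2 (-0.91) were not. Of 13 genes of nitric oxide and cyclic nucleotide relaxation, the prostaglandin receptor PTGER2 was higher at 29.9 and 14.6 CPM (1.03), though it stood at -0.04 when each cell had equal weight. PTGER4, another prostaglandin receptor, was lower at 9.24 and 50.9 CPM (-2.46).

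Of 32 matrix genes 2 were higher and 1 lower, shares near or below those over all genes (4.79% and 5.77%). COL18A1, a basement membrane collagen, was higher at 28.1 and 6.81 CPM (2.04) and THBS1, a thrombospondin that activates TGF-beta, at 200.5 and 89.8 (1.16). SPARCL1, a matricellular protein, was lower at 321 and 2044 CPM (-2.67), in 45.9% of glaucoma and 81.4% of normal members, and in juxtacanalicular-type cells by -1.03. The list's median was -0.01, and COL1A2 (-0.08) and LAMA4 (-0.01) were among those that differed least. Of 16 genes of matrix turnover, SERPINE2 (755 and 258 CPM, 1.55), MMP3 (1.37) and the plasminogen activator PLAT (1.29) were higher. The crosslinking enzyme TGM2 (56.9 and 274 CPM, -2.27), the protease ADAMTS1 (54.4 and 232 CPM, -2.09) and the inhibitor TIMP3 (1009 and 3264 CPM, -1.69) were lower.

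In the BMP and TGF-beta pathway, several ligands and receptors were lower in glaucoma members. Of 26 genes 1 was higher and 6 lower, with a median of -0.54. TGFB2, the main TGF-beta ligand of the aqueous humour, was at 144 and 370 CPM (-1.36), and BMP5 (-1.22) and BMP2 (-1.32) were lower too. The receptors BMPR2 (-1.14) and TGFBR3 (-1.05) and the latent complex protein LTBP2 (-1.45) followed, while LTBP4 was higher (1.23). Of 25 Wnt genes other than WIF1, 2 were higher and 5 lower, with a median of -0.35. RSPO3 was at 217 and 80.7 CPM (1.43 [1.24, 1.62]) and the coreceptor LRP5 at 14.3 and 5.83 (1.30). The secreted inhibitors SFRP1 (210 and 616 CPM, -1.55) and DKK3 (94.0 and 242 CPM, -1.36), the receptor FZD5 (-1.21), DACT1 (-1.34) and CTNNB1, beta-catenin (-1.11), were lower. SFRP1 was lower in juxtacanalicular-type cells as well (-2.15).

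Of 20 inherited glaucoma and outflow genes, none was higher and 4 were lower, with a median of -0.29. In juxtacanalicular-type cells 1 was higher and 4 lower of 17, with a median of -0.21. In fibroblast-type cells 1 was higher and 4 lower of 15, with a median of -0.31. Over all genes, 82 were higher and 189 lower of 3685 in the former, and 70 and 344 of 3699 in the latter. The list's lower values were thus not confined to members. ANGPT1, an angiopoietin needed for Schlemm's canal, was at 180 and 433 CPM (-1.27), and the cholesterol transporter ABCA1 (-1.31), LTBP2 and FNDC3B (-1.01) were the others. MYOC (-0.38), CYP1B1 (-0.63), CAV1 (0.17) and FOXC1 (0.83) were within 2-fold. Of 11 anterior segment transcription factors, TFAP2B was higher at 312 and 129 CPM (1.28), detected in 69.8% and 35.4% of members, and MEIS2 lower at 8.29 and 31.1 (-1.91). With the same weights for cells of 2, 3 and 4 rule genes, the ratio of TFAP2B was 0.79.

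Many immediate early, heat shock and inflammatory genes were lower in glaucoma members. Of 20 immediate early genes, 0 were higher and 11 lower, with a median of -1.26. EGR1 was at 464 and 2179 CPM (-2.23), in 65.8% and 85.8% of members, and KLF4 at 79.3 and 375 (-2.24). The median of this list was -0.45 in juxtacanalicular-type cells and -0.99 in fibroblast-type cells, with 6 of 16 and 6 of 12 genes lower. Over all genes measured in these cells, 189 of 3685 and 344 of 3699 were lower, with medians of -0.04 and -0.17. These genes are known to respond to dissociation of tissue. Of 14 heat shock genes 6 were lower, with a median of -0.85. DNAJB1, a co-chaperone, was at 236 and 1471 CPM (-2.64) and BAG3 at 40.1 and 308, while the lens and stress protein CRYAB was within 2-fold (0.61). Of 14 inflammatory genes 6 were lower, with IL6 at 16 and 138 CPM, CXCL2 at 13.9 and 134 and CCL2, a chemokine for monocytes, at 140 and 457 (-1.70). VCAM1, an adhesion molecule for leukocytes, was the 1 higher gene, at 50.2 and 17.8 CPM (1.49). The inflammatory list had a median of -0.98 in members. In juxtacanalicular-type cells its median was -0.82, with 0 higher and 3 lower of 10. In fibroblast-type cells it was -0.30, with 1 higher and 3 lower of 11.

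Of 17 interferon-induced genes measured, 3 were higher and 1 lower, with a median of 0.48. In juxtacanalicular-type cells the list's median was -0.67, with 0 higher and 2 lower of 6, and in fibroblast-type cells 1.07, with 4 higher and 0 lower of 7. Over all genes, 82 were higher and 189 lower of 3685 in juxtacanalicular-type cells, and 70 and 344 of 3699 in fibroblast-type cells. IFI27 was at 53.9 and 8.43 CPM (2.68), in 13.4% and 4.72% of members, OAS1 at 36.4 and 11.7 (1.64) and IFI6 at 52.7 and 23.3 (1.18). IRF1, a transcription factor of the response, was lower (-1.52). IFI27 was also higher in fibroblast-type cells (2.72) and stood at 57.1 and 30.3 CPM in lymphocyte-type cells. Of 14 genes of endoplasmic reticulum stress only XBP1 was past 2-fold (-1.32), and of 16 oxidative defence genes GPX4 was higher (1.40) and NQO1 (-2.01) and SOD2 (-1.31) were lower.

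Genes of glycolysis and hypoxia lay on both sides. GAPDH was at 663 and 207 CPM (1.68), PGK1 at 30.0 and 14.3 (1.07), SLC2A1 at 553 and 203 (1.45) and ANKRD37 at 152 and 53.5 (1.51), all higher in glaucoma members. The glucose transporter SLC2A3 (-2.27), adrenomedullin ADM (-2.01) and the hypoxia factor EPAS1 (-1.93) were lower, which made 4 higher and 3 lower of 18. Nuclear genes of oxidative phosphorylation had a median of 0.43 over 22 genes with 1 past 2-fold, UQCRH (1.76). The same list had medians of 0.17 in juxtacanalicular-type and 0.35 in fibroblast-type cells.

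Among transport and growth factor genes, KCNJ8 was higher at 109 and 38.2 CPM (1.51), and SLC9A9 by 1.35, of 18 genes measured. SLC4A11 (-1.27) was 1 of 3 lower genes. AQP1 was at 115 and 104 CPM (0.15). In the insulin-like growth factor list of 11, IGFBP7 was higher at 444 and 118 CPM (1.91), and IGFBP5 (271 and 1715 CPM, -2.66), IGF1 (76.5 and 291 CPM, -1.93) and IGFBP4 (-1.12) were lower. IGFBP7 differed by 1.90 in juxtacanalicular-type and 2.03 in fibroblast-type cells. CAVIN2, a caveolar coat protein, was the 1 gene of 13 in the integrin and caveola list past 2-fold, at 130 and 21.7 CPM (2.58 [2.23, 2.96]), in 36.6% and 8.40% of members. Lymphocyte-type cells held CAVIN2 at 123 and 7.58 CPM. Of 14 neural guidance genes EPHA7 (42.9 and 9.08 CPM, 2.24) and NTN4 (1.08) were higher and 4 were lower, among them PCDH9 (-1.73). Of 13 lipid genes, SQLE (1.30) and APOE (541 and 226 CPM, 1.26) were higher and CLU (-1.57) and ABCA1 lower. Of 10 senescence and cell cycle genes, GADD45G and CDKN1A (-1.81) were lower, and of 7 antigen presentation genes PSMB9 was higher (1.15). Over all genes 4.79% were higher and 5.77% lower, so a few genes past 2-fold in a short list are not read as a trait of that list.

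Some of these differences came under 2-fold when cells were chosen or weighted otherwise. The alternatives were read for genes named by rank or as a list's 2 highest or 2 lowest. Of these, 87 were past 2-fold between glaucoma and normal members. Under every alternative that gave a value, 56 of the 87 remained so in the same direction. Other list genes given above, such as CNN1, TAGLN, BMPR2, TGFBR3, FNDC3B and PGK1, were not followed individually under the alternatives. Requiring at least 3 rule genes gave 0.92 for RSPO3, 0.96 for THBS1, 0.08 for APOE, 0.82 for SQLE, -0.68 for MYL2 and 0.95 for LRP5. Leaving out members with 2 or more UMIs of CHI3L1 gave 0.61 for SERPINE2, -0.89 for SFRP1, 0.65 for OAS1, 0.76 for GPX4, -0.96 for CLU, -0.98 for SOD2, -0.98 for IRF1, -0.71 for PCDH9 and 0.97 for SLC9A9. Choosing and counting members at 1000 UMIs per barcode, which left 85 in normal, gave 0.77 for CAVIN2, 0.44 for KCNJ8, 0.52 for COL18A1, 0.17 for DES, 0.72 for MYH1, 0.04 for LTBP4, -0.58 for TGFB2, -0.72 for DKK3, -0.60 for ADM, -0.86 for LONRF3 and 0.90 for SCG5. Equal weight per cell gave 0.53 for MMP3, and PSMB9 was at 0.71 without the CHI3L1-holding members. TNNT1, SMPX, BCHE, SOSTDC1, CHAD, TGFBI, NR4A3 and IGFBP5 were among those past 2-fold throughout.

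**Figure D5:**
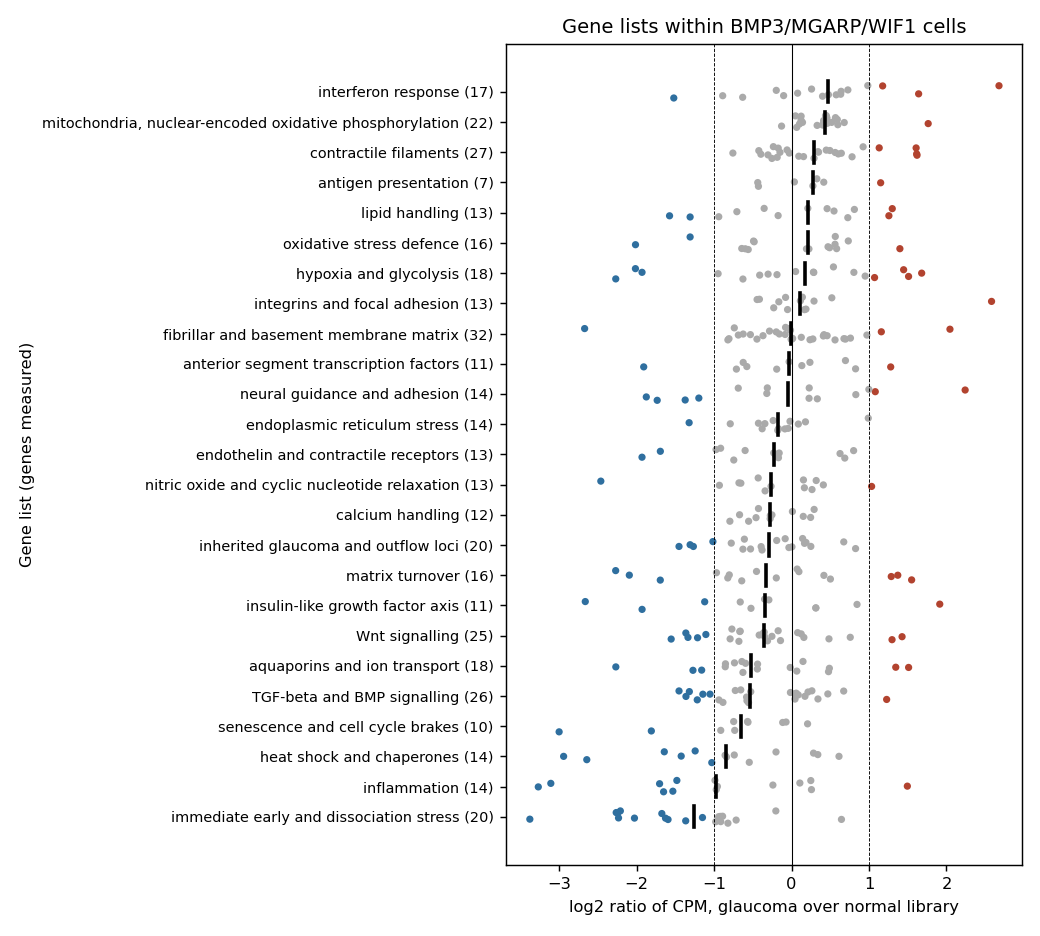
Each point is a gene of 1 of 25 lists, placed by its log2 ratio of CPM in glaucoma over normal members, with the list median as a bar, red at 2-fold higher or more and blue at 2-fold lower or more. The immediate early list lies lowest, with a median of -1.26 and 11 of 20 genes 2-fold lower.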

How the data were processed

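The deposited values were counts of UMIs per gene and barcode, whole and not normalized, in a matrix for each library. The submitters' processing notes name Cell Ranger 4.0 and Seurat 3.0, whereas Cell Ranger 6.0.0 is named per the file headers. Neither build nor annotation is named: both are not given in the sources used here. Of 24037 features, 15580 had a symbol in the files and 873 took one from a reference table of gene names. The markers CD7, C1QA, MLANA and SOX10 had no feature of that name.

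The members, the markers listed for them and the 26 gene lists were chosen with earlier results of these data known. UMIs were summed over the cells of each group and divided by their total (CPM). Intervals were exact: Clopper-Pearson for shares, Poisson for sums and conditional binomial for ratios, at 95%. Genes needed at least 100 UMIs over the 2 groups compared. A gene at 0 was set against a floor of 3 counts. Genes were named by rank: the 15 highest and 15 lowest within members past 2-fold, whose interval excluded no difference and of which no barcode held over 25% of the UMIs in the higher library, leaving out mitochondrial, ribosomal protein and haemoglobin genes. Against each comparator they were the 15 highest and up to 10 lowest by the smaller difference of the libraries, and each list's 2 highest and 2 lowest. Further genes of the lists are given in the text without being part of this named set. Lymphocyte-type cells held at least 2 of CD3D, CD3E and CD2 with PTPRC, and endothelial-type cells held PECAM1 with CDH5 or VWF. Thinning drew 1000 UMIs per barcode with seed 1. Doublets called by Scrublet were removed only as an alternative. The caller marked 3.43% and 0.829% of kept barcodes, against 6.91% and 4.34% expected from their number. The alternatives changed the rule, filters, depth, minimum counts, scaling and weights of cells. Python 3.11.15, numpy 2.4.6, scipy 1.17.1, pandas 2.3.3, scanpy 1.11.5 and matplotlib 3.10.9 were used, and the calculations were tested on simulated data. A few genes that met the naming rule are not reported here.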

Additional observations from a re-analysis of the deposited data

Results flagged for a closer look

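Some barcodes outside the filters on genes and mitochondrial share also met the marker rule, 15 of 1991 (0.753% [0.422, 1.24]) in glaucoma and 2 of 1598 (0.125% [0.0152, 0.451]) in normal. They were listed because they lie outside the main measurement and their share was higher in glaucoma than in normal.

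A few genes differed by 2-fold in opposite directions in the 2 libraries, and the difference between the libraries was not tested. Relative to juxtacanalicular-type cells, SPP1, osteopontin, had log2 ratios of -1.03 in glaucoma (82.2 and 168 CPM) and 1.01 in normal (54.5 and 27.0 CPM). CCN3, a matricellular protein, had -1.35 (47.4 and 121 CPM) and 2.06 (34.4 and 8.25 CPM). Relative to fibroblast-type cells, CAVIN2 had 1.42 and -1.75, and GADD45G, a stress-induced growth regulator, had -1.88 and 1.01. HACE1 had 1.71 and -1.47, and PTPN9 1.10 and -1.20. In glaucoma HACE1 rested on 3 fibroblast-type UMIs, with an interval of [0.13, 4.01], and PTPN9 on 6, with an interval of [-0.06, 2.56].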

How the results depend on the processing

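No paired analysis was possible because each group had 1 library. The log2 ratio of the members' share, 1.27, was 2.21 with at least 3 marker genes, 2.51 at 1000 UMIs per barcode and 1.89 without members that held 2 or more UMIs of CHI3L1. Genes higher in glaucoma members, 355, became 84 when thinned, 175 without CHI3L1-holding members, 799 with a minimum of 20 UMIs and 1123 with no minimum. Genes lower, 428, became 60 when thinned, 923 at 20 UMIs and 1917 with no minimum. Of the genes called, 45.3% were higher. This was 58.3% when thinned and 51.0% without the barcode with most UMIs of each gene. Over juxtacanalicular-type cells, the 34 higher genes became 0 when thinned and 144 at 20 UMIs, and the 8 lower genes became 28 with at least 3 markers, 37 without CHI3L1-holding members, 16 at 20 UMIs and 12 when thinned. Over fibroblast-type cells, the 175 higher genes became 29 when thinned, 63 without CHI3L1-holding members and 314 at 20 UMIs, and the 315 lower became 54, 151 and 700, and 191 when centred. Thinned sums hold fewer UMIs, so fewer genes reach the minimum. The median of the lipid list, 0.21, turned to -0.069 with at least 3 markers, -0.27 when thinned, -0.28 without CHI3L1-holding members, -0.17 with a minimum of 20 UMIs or none and -0.052 with equal weight per cell, which last also turned PTGER2 to -0.045. The cause was not tested. Of 124 genes named by rank or as a list's 2 highest or 2 lowest, 87 were past 2-fold. Of these, 56 stayed so in the same direction under every alternative that gave a value. TNNT1 ranged from 2.09 to 9.05, SMPX from 4.00 to 5.16, RSPO3 from 0.92 to 1.48 and CAVIN2 from 0.77 to 2.72. Removing doublets left 1425 and 380 members.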
